A study of Cavia porcellus with 72 samples.

Results

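Fractalkine and the genes that mark microglia were examined in the hippocampus of female guinea pigs from 3 generations of a line whose founders received a synthetic glucocorticoid (sGC) or vehicle in pregnancy. The 10 genes were listed by symbol: CX3CL1, CX3CR1, CSF1R, P2RY12, TMEM119, C1QA, C1QB, C1QC, TREM2 and TYROBP. Of these, 8 were among the 11651 genes of the F1 table, 7 among the 11716 of the F2 table and 8 among the 11663 of the F3 table, and 7 were in all 3 tables. TMEM119 was in the F1 and F3 tables, and C1QA and C1QC were not analysed here.

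The animals were Dunkin-Hartley guinea pigs, taken on postnatal day 40 in an undisturbed state. Pregnant F0 dams were given repeated courses of betamethasone (sGC) or saline (control). The F1 offspring were therefore exposed before birth, whereas F2 and F3 were bred through F1 and F2 males mated with females from outside the experiment, in both the sGC and the control line. All females studied came from independent mothers. Polyadenylated RNA of the right hippocampus was sequenced from 6 control and 5 sGC animals in F1, 6 and 6 in F2, and 6 and 7 in F3, giving 36 libraries of 13507449 to 19767033 counted reads.

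Microglia are the resident macrophages of the brain and are known for surveying synapses and clearing debris. CX3CL1 (fractalkine) is made mainly by neurons, sits in their membrane or is shed from it, and binds CX3CR1, which in the brain is carried by microglia. CSF1R keeps microglia alive, P2RY12 and TMEM119 mark their resting state, C1QA, C1QB and C1QC form the complement starter C1q, and TREM2 signals through its adaptor TYROBP.

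Levels are given as reads per 1e+06 counted reads (CPM) after TMM scaling, and sGC was compared with control using the quasi-likelihood test of edgeR. Its p-values were adjusted over all genes tested (Benjamini-Hochberg), and a gene passed with an adjusted p under 0.05. Whole hippocampus was sequenced, so fewer cells of a type and less RNA per cell cannot be told apart.

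Before the comparisons, 3 features of the libraries bear on every value. Libraries carry a running number in their labels, and those numbered 32 to 36 fall outside the run of their own generation. All 5 of them are sGC animals: replicates 4 and 5 of F1, replicate 6 of F2 and replicates 5 and 6 of F3. What the numbers stand for is not given in the sources used here. Among the F1 sGC animals, replicate 4 (library 35) stood apart, with a summed level of 378 CPM over 20 other microglial genes where the other F1 libraries reached at most 322. In the same library the summed level of 5 neuronal genes was 3744 CPM, below the 4333 to 5180 CPM of the other F1 libraries, and that of 6 astrocyte genes was 12182 CPM, above the 6469 to 9988 CPM of the others. The F2 table also differed from the other tables: 8.41% of genes were more than 1.5-fold apart between F2 and F1 controls, and 8.17% between F3 and F2 controls, against 0.448% between F3 and F1 controls.

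The ligand CX3CL1 was the member that differed in F3. In the 6 F3 control libraries its level was lowest at 999.8, with a median of 1064 and a highest value of 1110 CPM. The 7 F3 sGC libraries held 895 CPM at the lowest, 953 at the median and 984 at the highest, so that every sGC animal lay below every control. Group means were 1060 ± 41.4 CPM (SD, n = 6) and 949 ± 28.3 CPM (SD, n = 7). The fitted difference was a log2 fold change of -0.16 (SE 0.032), a change of -10.5%, with an adjusted p of 0.0102 in edgeR's quasi-likelihood test. CX3CL1 was 1 of 8 members to pass in F3, where 5.04% of all genes passed and 2.87% passed with a lower level. Groups lay apart without overlap, sGC below, in 1.88% of all genes.

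That F3 difference was present in all 8 other settings tried (adjusted p between 2.06e-05 and 0.0472) and in each of the 13 fits that left out 1 library (adjusted p between 0.0115 and 0.0286, all by edgeR's or DESeq2's test). Without libraries 34 and 36, the F3 animals with numbers in the outlying run, the CX3CL1 log2 fold change was -0.16 with an edgeR adjusted p of 0.0366.

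With all libraries included, the neuronal and the astrocyte medians each had the same sign in F1, F2 and F3. The F1 neuronal sign turned without libraries 32 to 36. In the F3 comparison above, both sets of markers moved. Of 5 neuronal genes, 5 were lower and 3 passed: SNAP25, a protein of the synaptic vesicle fusion machinery (log2 fold change -0.19, edgeR adjusted p = 0.0160), SYT1, the calcium sensor of that machinery (-0.19, adjusted p = 0.00765), and NEFL, a neurofilament subunit (-0.17, adjusted p = 0.0119). The summed level of the 5 neuronal genes ran from 4714 to 5105 CPM in controls and from 3987 to 4615 CPM in sGC, without overlap. A second list, of 8 genes of hippocampal neurons, had 6 lower and 2 higher in F3, with 0 calls and a median of -0.04. Its summed level overlapped, from 8183 to 8791 CPM in controls and from 7355 to 10481 CPM in sGC. All 6 astrocyte genes were higher and 1 passed, the glutamate transporter gene SLC1A2 (log2 fold change 0.24, edgeR adjusted p = 0.0201), with summed levels of 7137 to 7799 CPM in controls and 7960 to 9631 CPM in sGC. The 6 astrocyte genes were also higher in F1 (6 of 6, median 0.24) and F2 (6 of 6, median 0.08), and 5 of 5 neuronal genes were lower in F2 (median -0.04) and 3 of 5 in F1 (median -0.05), with 0 calls (4 and 3 astrocyte genes and 0 and 1 neuronal genes at an unadjusted p under 0.05 in F1 and F2). Without libraries 32 to 36, 3 of 5 neuronal genes were higher in F1 (median 0.04) and 3 of 5 lower in F2 (median -0.01). Astrocyte genes were then higher in 6 of 6 cases in F1 (median 0.08) and 4 of 6 in F2 (median 0.07). In F3, 5 of 5 neuronal genes stayed lower and 6 of 6 astrocyte genes higher. No neuronal or astrocyte gene of these lists was at 0 in any group. Their part in the CX3CL1 difference was not tested.

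**Figure D1:**
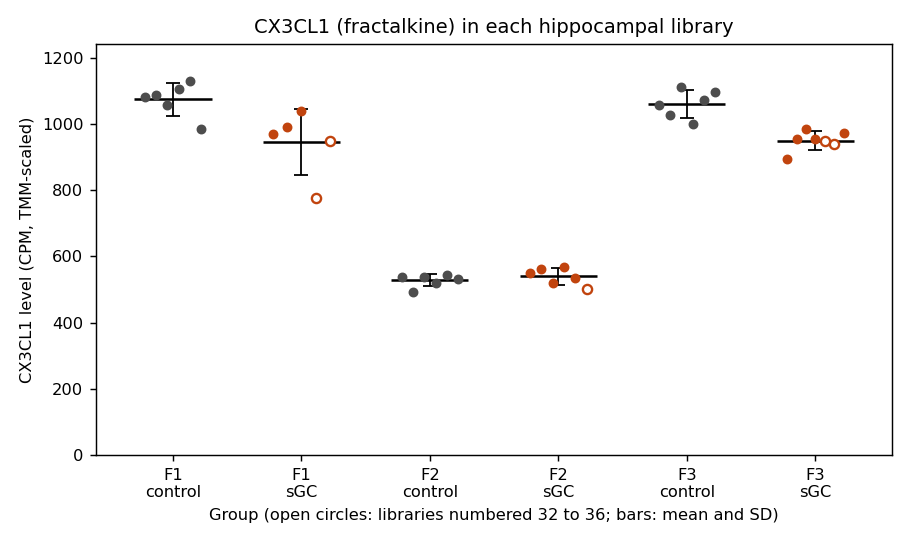
CX3CL1 level (CPM, TMM-scaled, linear axis from 0) in each of the 36 libraries by generation and treatment, with open circles for libraries numbered 32 to 36 and bars for the group mean and SD. The 7 F3 sGC libraries lie below all 6 F3 controls, the F1 groups overlap, and all 12 F2 libraries lie at 494 to 568 CPM.

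In F1, CX3CL1 was 985 at the lowest, 1084 at the median and 1128 CPM at the highest in the 6 controls. The 5 sGC animals held 970, 990, 1040, 777 and 949 CPM in the order of their replicate numbers. All 5 were below the control mean of 1074 CPM, but replicates 2 and 3 were above the lowest control. The log2 fold change was -0.18 (SE 0.068), with an edgeR adjusted p of 0.156, and 0 of 8 members passed in F1, where 2.08% of all genes did. At an unadjusted p under 0.05 there were 4 of 8 members beside 19.6% of all genes, and neither the likelihood ratio test nor DESeq2 called any member. Without replicate 4 the log2 fold change was -0.12 (edgeR adjusted p = 0.152), and without libraries 32 and 35 it was -0.10 (edgeR adjusted p = 0.283). Fitted with the libraries of all generations together, the F1 difference passed, with an edgeR adjusted p of 0.0208.

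F2 gave no lower level of CX3CL1 in sGC. Controls ran from 494 CPM through a median of 536 to 543, and sGC animals from 503 through 542 to 568 CPM, with the groups overlapping. Its log2 fold change was 0.03 (SE 0.034), with an edgeR adjusted p of 0.864. In F2 0 of 7 members passed (1 at an unadjusted p under 0.05, 0 by the likelihood ratio test and by DESeq2), and neither did any other gene (0% of 11414 by edgeR's quasi-likelihood test, 758 or 6.64% at an unadjusted p under 0.05, 6 by its likelihood ratio test and 12 by DESeq2).

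Whether the CX3CL1 effect differed between generations was tested as an interaction over all 36 libraries. The effect in F2 minus that in F1 was 0.21 on the log2 scale (SE 0.066, edgeR adjusted p = 0.102), and that in F3 minus that in F2 was -0.19 (SE 0.063, adjusted p = 0.494). The F3 effect minus the F1 effect was 0.02 (SE 0.064, adjusted p = 0.939). No interaction passed for any of the 7 members in all tables, beside 0.290% of all genes for F2 minus F1 and 0% for the other pairs. At an unadjusted p under 0.05 these were 3, 0 and 2 members for F2 minus F1, F3 minus F1 and F3 minus F2, beside 16.8%, 13.1% and 9.08% of all genes. DESeq2 called 1 member for F2 minus F1, beside 2.37% of all genes, and the likelihood ratio test called 0, beside 1.47%. Over all genes, those tests called 67 and 58 for F3 minus F1, and 0 each for F3 minus F2. Without libraries 32 to 36, the quasi-likelihood test called 431 genes for F3 minus F1 and 68 for F2 minus F1. The CX3CL1 value for F3 minus F1 was then -0.05 (edgeR adjusted p = 0.649).

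Averaged over the generations, CX3CL1 was lower in sGC by a log2 fold change of -0.10 (SE 0.026, edgeR adjusted p = 0.0162), the 1 of 7 members to pass, where 8.53% of all genes did and 3.46% passed with a lower level. This average was not past the threshold without libraries 32 to 36 (-0.07, edgeR adjusted p = 0.122), when 54 genes in all passed in place of 971. It shares its libraries with the comparisons above and is no separate evidence.

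The level of CX3CL1 itself separated the F2 table from the others. All 12 F2 libraries lay between 494 and 568 CPM, and the 24 libraries of F1 and F3 between 777 and 1128 CPM. Among controls, F2 minus F1 was -1.07 on the log2 scale (SE 0.046, edgeR adjusted p = 7.61e-22) and F3 minus F2 was 1.04 (SE 0.046, adjusted p = 2.05e-21), whereas F3 minus F1 was -0.03 (SE 0.045, adjusted p = 0.927). In these contrasts 44.9%, 38.0% and 0.0176% of all genes passed. Of the 7 members, 3 passed between F2 and F1 controls (also P2RY12 at 0.29 and TYROBP at -0.26, edgeR adjusted p = 0.0161 and 0.0202), 1 between F3 and F2, and 0 between F3 and F1 (0 at an unadjusted p under 0.05, by the likelihood ratio test or by DESeq2). Library 33, the F2 animal in the outlying run of numbers, held 503 CPM, within the F2 range, while libraries 32, 34, 35 and 36 lay in the range of F1 and F3. Each generation was deposited as its own table, so the generation and the way its reads were counted cannot be told apart.

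Proteins that cut fractalkine from the membrane are ADAM10 and ADAM17. Of the 3 genes measured among the ligands of these receptors and the sheddases (CSF1, ADAM10 and ADAM17), 0 passed in any generation. ADAM10 had log2 fold changes of 0.07 in F1, 0.00053 in F2 and -0.01 in F3, and ADAM17 of -0.08, -0.0011 and 0.06. CSF1, a ligand of CSF1R, had values of -0.04, 0.04 and 0.03. IL34, the other ligand of CSF1R, was not analysed here.

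The receptor CX3CR1 did not pass in any generation. In F1 controls its lowest, median and highest levels were 46.3, 52.7 and 56.9 CPM, and the 5 sGC animals held 54.4, 55.4, 53.9, 74.9 and 58.8 CPM. Every sGC animal was above the control mean of 52.02 CPM and 2 were above the highest control, replicates 4 and 5. Its F1 log2 fold change was 0.19 (SE 0.081, edgeR adjusted p = 0.209), and without replicate 4 it was 0.10 (adjusted p = 0.309).

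CX3CR1 lay closer together in F2, from 50.4 through 51.9 to 53.5 CPM in controls and from 47.9 through 52.8 to 60.9 in sGC (log2 fold change 0.04, SE 0.056, edgeR adjusted p = 0.899). F3 controls ran from 46.9 through 52.7 to 63.4 CPM, and F3 sGC animals from 51.5 through 56.6 to 66.1. There, 6 of 7 sGC animals were above the control mean, with a log2 fold change of 0.10 (SE 0.066, edgeR adjusted p = 0.406). Over the generations the mean effect was 0.11 (SE 0.042, adjusted p = 0.0811), and 0.06 without libraries 32 to 36 (adjusted p = 0.536).

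CSF1R, the receptor that microglia need for survival, was likewise higher in sGC in F1 and F3 without passing, and lower in F2. The 5 F1 sGC animals held 113, 108, 107, 135 and 122 CPM against 84.4 to 112 CPM in controls (median 107), with a log2 fold change of 0.17 (SE 0.076, edgeR adjusted p = 0.242). In F2 the controls ran from 90.8 through 97.01 to 109 CPM and the sGC animals from 85.8 through 94.2 to 107 (-0.04, SE 0.052, adjusted p = 0.906). F3 gave 87.7, 105 and 123 CPM as lowest, median and highest control values and 102.3, 110 and 127 in sGC (0.09, SE 0.068, adjusted p = 0.479). The groups overlapped in every generation.

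P2RY12, the ADP receptor that guides microglial processes, had the largest spread of effects between generations among the members in all 3 tables. F1 sGC animals held 40.4, 45.7, 39.5, 67.6 and 47.6 CPM, against 34.1 to 45.7 CPM in controls (median 38.9). This gave a log2 fold change of 0.28 (SE 0.13, edgeR adjusted p = 0.235), and 0.13 without replicate 4 (adjusted p = 0.409). In F2 the direction was the opposite: 6 of 6 sGC animals (38.4, 45.1 and 49.7 CPM as lowest, median and highest) were below the control mean of 49.9 CPM (controls 45.4, 49.1 and 54.1). That difference, -0.14 (SE 0.062), did not pass either (edgeR adjusted p = 0.733).

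In F3, P2RY12 was above the control mean in 6 of 7 sGC animals. Controls held 33.8, 41.1 and 49.4 CPM as lowest, median and highest values, and sGC animals 40.3, 49.9 and 54.4, with overlap. For F3 the log2 fold change was 0.24 (SE 0.080) and the edgeR adjusted p was 0.0855. It passed in 3 of 8 other settings and in 2 of 13 fits that left out 1 library (without control replicate 1 or sGC replicate 7). The interaction was -0.43 for F2 minus F1 (SE 0.14, edgeR adjusted p = 0.119) and 0.39 for F3 minus F2 (SE 0.14, adjusted p = 0.494), so the difference in direction between generations was not past the threshold.

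TMEM119, a membrane protein that marks resident microglia, was sparsely counted, with 10 to 35 reads per library. F1 controls held 0.555, 1.23 and 2.10 CPM as lowest, median and highest values, and the sGC animals 0.795, 1.17, 0.71, 1.42 and 1.07. The log2 fold change was -0.26 with an SE of 0.32 (edgeR adjusted p = 0.691). In F3 the controls held 1.09, 1.33 and 1.49 CPM and the sGC animals 1.01, 1.28 and 1.71 (0.02, SE 0.16, edgeR adjusted p = 0.969). Approximate 95% intervals of the TMEM119 log2 fold change ran from -0.89 to 0.37 in F1 and from -0.30 to 0.34 in F3.

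**Figure D2:**
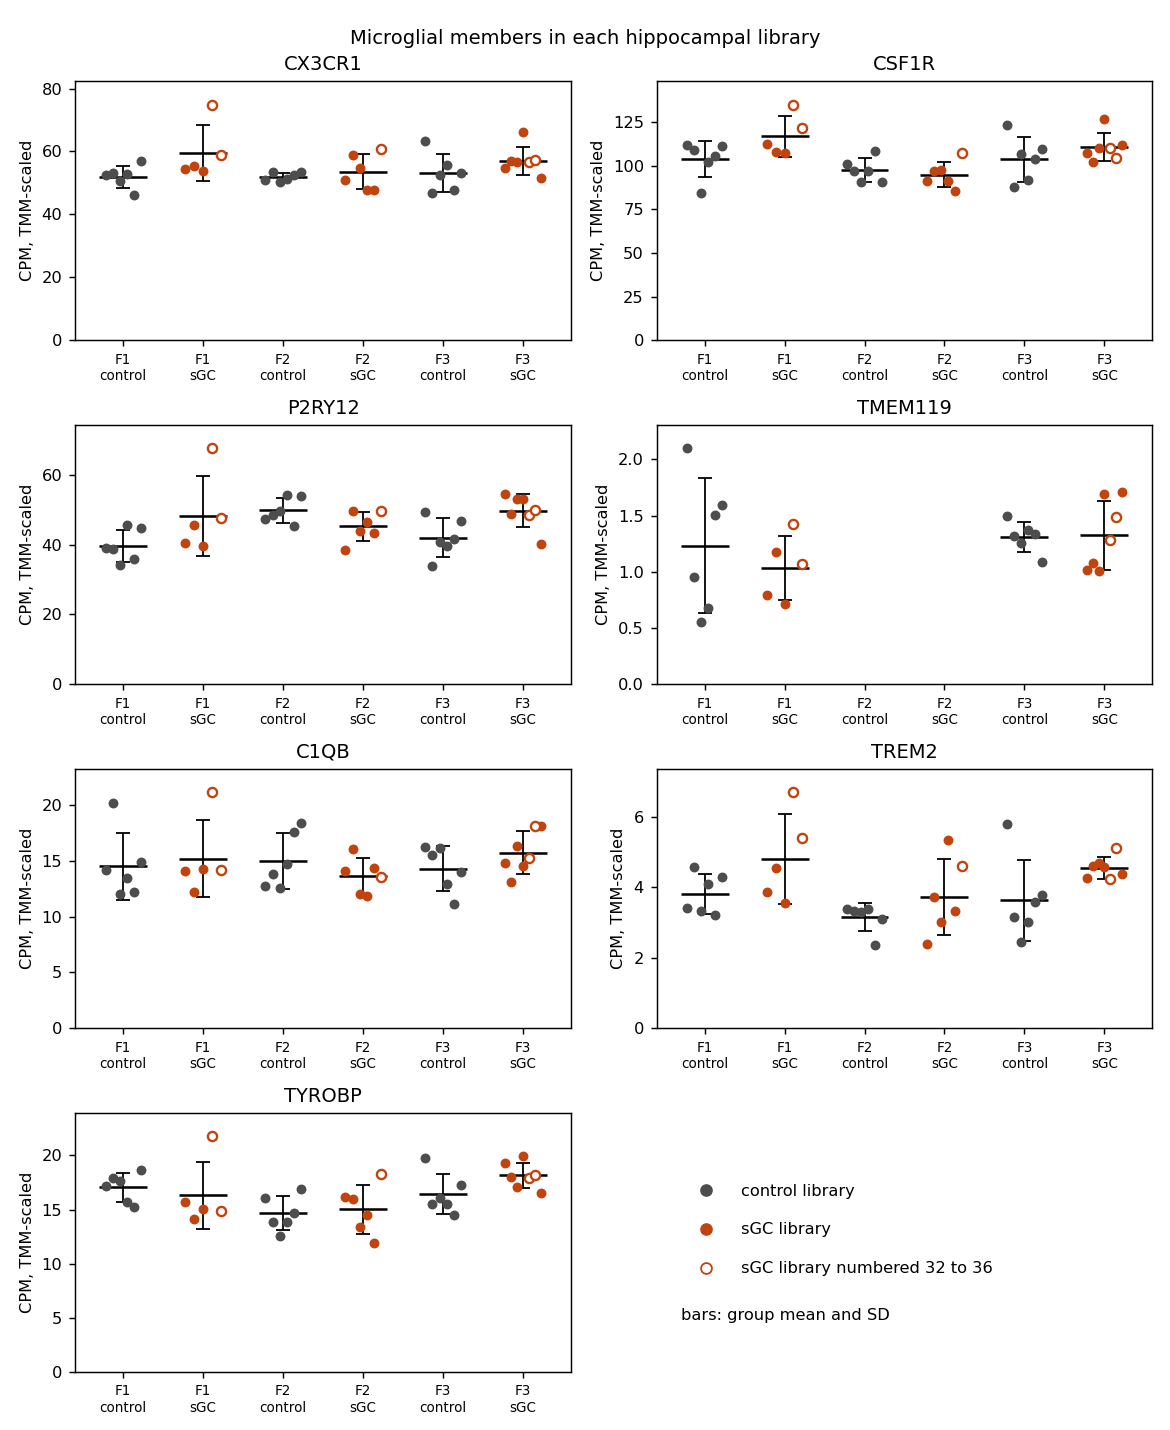
Level (CPM, TMM-scaled, linear axes from 0) of the other 7 members in each library by generation and treatment, with open circles for sGC libraries numbered 32 to 36 and bars for the group mean and SD. The open circle at the top of the F1 sGC group for CX3CR1, CSF1R, P2RY12, C1QB, TREM2 and TYROBP is replicate 4, and TMEM119 has no F2 values.

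C1QB, a chain of the complement protein C1q that tags synapses and debris, did not pass in any generation. F1 sGC animals held 14.1, 12.2, 14.3, 21.2 and 14.2 CPM against 12.1 to 20.2 CPM in controls (median 13.9). Its F1 log2 fold change was 0.06 (SE 0.15, edgeR adjusted p = 0.870), and without replicate 4 it turned to -0.09 (adjusted p = 0.748). F2 controls held 12.6, 14.3 and 18.4 CPM as lowest, median and highest values and F2 sGC animals 11.8, 13.8 and 16.1 (-0.13, SE 0.10, edgeR adjusted p = 0.808). For F3 the values were 11.2, 14.7 and 16.2 CPM in controls and 13.1, 15.3 and 18.2 in sGC (0.14, SE 0.095, edgeR adjusted p = 0.435).

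TREM2, the lipid-sensing receptor, had the highest fitted fold changes of the members in F1, F2 and F3, none of them past the threshold. In F1 the controls held 3.22, 3.75 and 4.58 CPM, and the sGC animals 3.85, 4.54, 3.55, 6.70 and 5.41, where replicates 4 and 5 exceeded every control. That came to a log2 fold change of 0.32 (SE 0.17, edgeR adjusted p = 0.297), and 0.18 without replicate 4 (adjusted p = 0.5258). F2 controls held 2.37, 3.32 and 3.38 CPM and F2 sGC animals 2.38, 3.52 and 5.34 (0.24, SE 0.17, edgeR adjusted p = 0.796).

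All 7 F3 sGC animals had more TREM2 than the control mean of 3.63 CPM, at 4.23, 4.56 and 5.11 CPM for the lowest, median and highest. F3 controls ran from 2.45 through 3.37 to 5.79 CPM, and 1 of them, replicate 1, was above every sGC animal. The log2 fold change was 0.33 (SE 0.15, edgeR adjusted p = 0.216), and 0.51 without that control (adjusted p = 0.0205). The mean effect over the generations was 0.30 (SE 0.099) with an edgeR adjusted p of 0.05004, just outside the threshold, and it was 0.18 without libraries 32 to 36 (adjusted p = 0.432). TREM2 had 33 to 99 reads per library.

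TYROBP, the adaptor through which TREM2 signals, had 15.2, 17.4 and 18.7 CPM in F1 controls and 15.7, 14.1, 15.1, 21.8 and 14.9 CPM in the sGC animals. Apart from replicate 4, the F1 sGC animals were below the control mean of 17.04 CPM. The log2 fold change was -0.07 (SE 0.10, edgeR adjusted p = 0.749), and -0.19 without replicate 4 (adjusted p = 0.144). In F2 the controls held 12.6, 14.3 and 16.9 CPM and the sGC animals 11.9, 15.2 and 18.3 (0.04, SE 0.096, edgeR adjusted p = 0.948). In F3 all 7 sGC animals (16.5, 18.05 and 19.9 CPM) exceeded the control mean of 16.4 (controls 14.5, 15.8 and 19.7), with a log2 fold change of 0.14 (SE 0.069, edgeR adjusted p = 0.239).

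**Figure D3:**
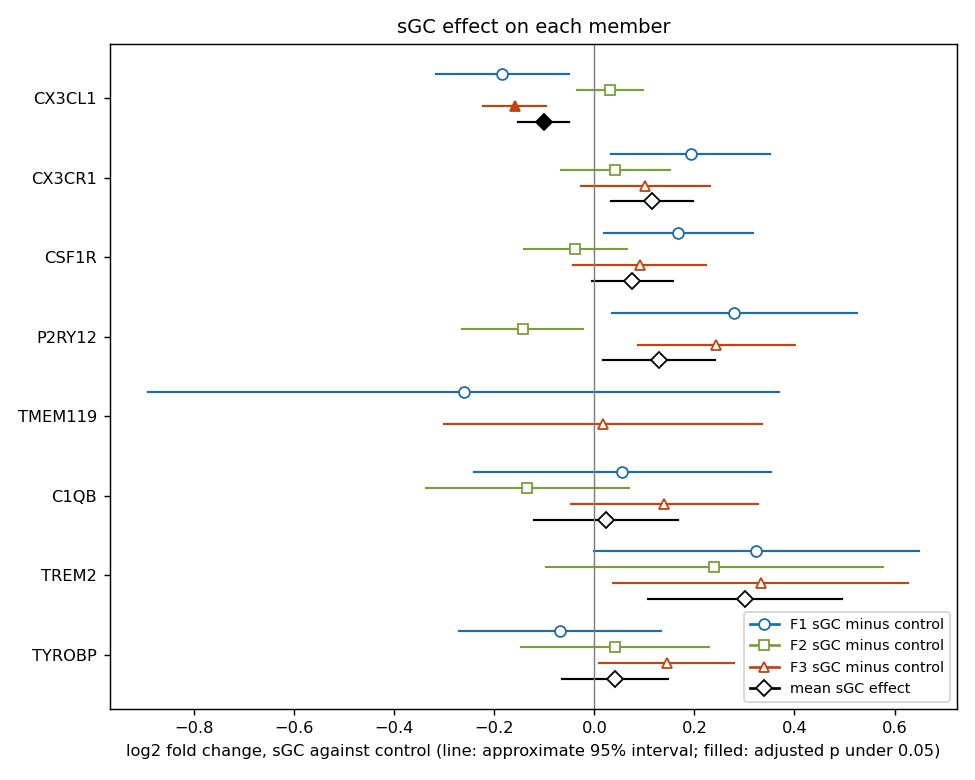
Log2 fold change of sGC against control for each member in F1, F2, F3 and averaged over the generations, with lines for approximate 95% intervals and filled symbols for an adjusted p under 0.05. The 2 filled symbols are CX3CL1 in F3 (-0.16) and CX3CL1 averaged (-0.10), and TMEM119 has the widest intervals.

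Set side by side, the 7 members other than CX3CL1 were higher in sGC in F3 in 7 of 7 cases, with a median log2 fold change of 0.14, where 51.7% of all genes were higher and their median was 0.00. In F1, 5 of 7 were higher with a median of 0.17, beside 48.3% of all genes and a median of -0.01. In F2, 3 of 6 were higher with a median of 0.00, beside 49.7% of all genes. Without libraries 32 to 36 the counts were 4 of 7 in F1, 2 of 6 in F2 and 6 of 7 in F3. None of these members passed the test singly, and they share the same animals.

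A further 20 microglial genes were measured of a list of 26, and 0 passed in any generation by edgeR (2, 2 and 5 at an unadjusted p under 0.05 in F1, F2 and F3, beside 19.6%, 6.64% and 21.1% of all genes). In F3, 19 of 20 were higher in sGC, with a median log2 fold change of 0.17, and the count and direction were 19 of 20 with a median of 0.17 without libraries 34 and 36. In F1, 17 of 20 were higher with a median of 0.11, but without libraries 32 and 35 only 7 of 20 were, with a median of -0.06, and without replicate 4 alone 12 of 20. In the same F1 comparison the 6 astrocyte genes were higher (median 0.24, and 0.08 without libraries 32 and 35) and the 3 oligodendrocyte genes lower (median -0.29, and -0.19 without them), with summed oligodendrocyte levels of 1016 to 1396 CPM in controls and 885 to 1262 CPM in sGC, and their part in the microglial values was not tested. In F2, 9 of 20 were higher, with a median of -0.01. AIF1, the microglial protein IBA1, had log2 fold changes of 0.09, 0.03 and 0.09 in F1, F2 and F3, and CD68, a lysosomal protein of phagocytes, of 0.28, 0.06 and 0.16. ITGAM was not analysed here.

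Around TREM2, 6 genes were measured of 7 partners and ligands, and 1 passed. APOE, a lipid carrier that TREM2 binds, held 2215, 2281 and 2332 CPM as lowest, median and highest in F3 controls and 2456, 2539 and 2769 CPM in F3 sGC animals, all above every control, as in 0.836% of all genes, where 2.17% passed with a higher level. Its log2 fold change was 0.18 (SE 0.034, edgeR adjusted p = 0.00801), and 0.17 without libraries 34 and 36 (adjusted p = 0.0260). In the brain APOE is made mainly by astrocytes, whose markers were higher in the same comparison as given above. The part of astrocytes in the APOE difference was not tested. APOE had log2 fold changes of 0.08 in F1 and 0.11 in F2, and like CX3CL1 it was lower in F2 controls than in F1 controls (-1.21, edgeR adjusted p = 4.13e-19).

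Among 10 genes measured of 15 linked to activated microglia, 5 were higher and 5 lower in F3, and the 1 that passed, CTSB, a lysosomal protease, was lower. It held 424, 440 and 482 CPM in F3 controls and 398, 409 and 420 in F3 sGC animals, without overlap (log2 fold change -0.12, SE 0.033, edgeR adjusted p = 0.0465). Of all genes in F3, 2.87% passed with a lower level, and 1.88% had every sGC library below every control. Without libraries 34 and 36 the CTSB value was -0.12 with an edgeR adjusted p of 0.116.

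Of the other complement genes 12 were tested in each generation out of 22 listed, with 0 past the threshold, and medians of 0.01, 0.01 and 0.07 in F1, F2 and F3. C3 was not analysed here. The 6 purinergic genes tested of 7 and the 9 cytokine and innate genes tested of 16 also gave 0 calls in each generation, although 9 of 9 of the latter were higher in F3 (median 0.17).

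On the average over generations, where 5.07% of all genes passed with a higher level and 3.46% with a lower one, the lists gave calls in both directions. Of the 20 other microglial genes, 1 passed higher (IRF8, a transcription factor, log2 fold change 0.22, edgeR adjusted p = 0.0433) and 1 lower. The other higher calls were the innate receptor gene TLR4 (0.19, edgeR adjusted p = 0.0157), the chemokine gene CXCL10 (0.57, adjusted p = 0.0384), the complement regulator SUSD4 (0.12, adjusted p = 0.0495) and APOE (0.13, adjusted p = 0.0274). CTSB passed lower (-0.07, edgeR adjusted p = 0.0373). Cell markers moved on the same average: 5 of 6 astrocyte genes passed higher (list median 0.20), 1 of 5 neuronal genes lower (NEFL, -0.09) and 1 of 8 genes of hippocampal neurons higher (CAMK2A, 0.18). Their part in the calls above was not tested. Over all genes, the calls on this average fell from 971 to 54 without libraries 32 to 36.

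**Figure D4:**
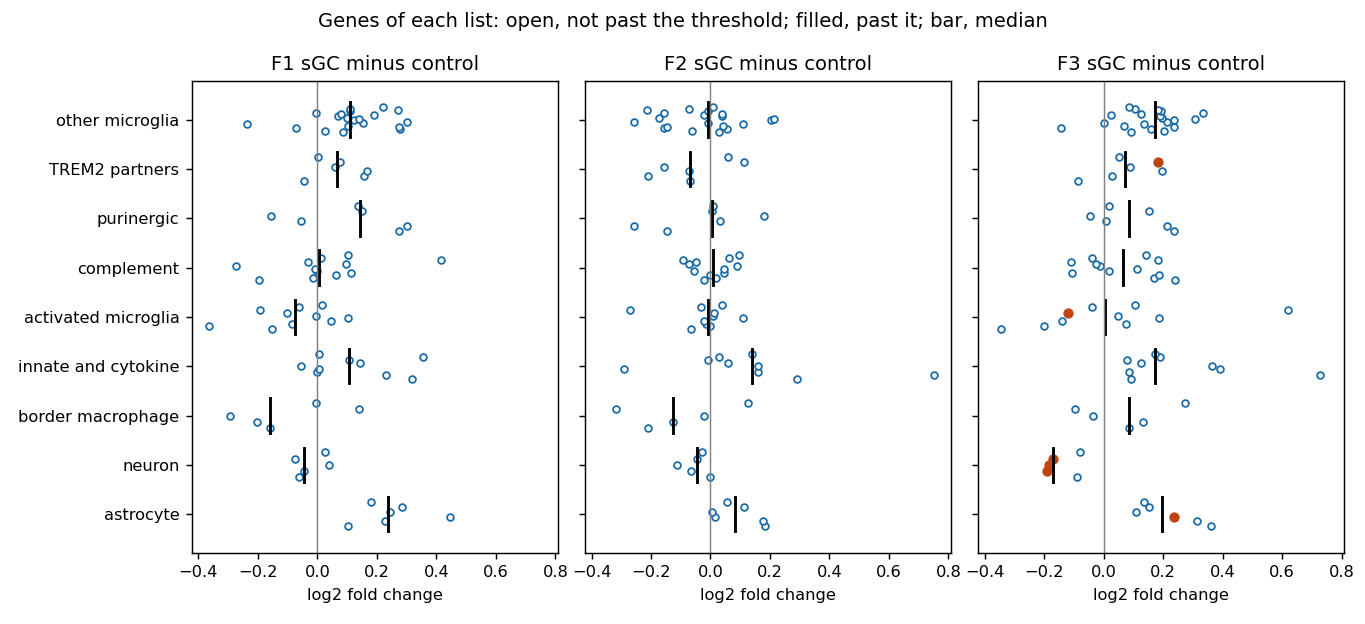
Log2 fold change of sGC against control for the genes of 9 lists in F1, F2 and F3, with open circles for genes that did not pass, filled circles for those that did and a bar for the list's median. Other microglial genes lie to the right of 0 in 19 of 20 cases in F3, and the filled circles are APOE, CTSB, 3 neuronal genes and SLC1A2, all in F3.

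Markers of other cells that a hippocampal piece can hold were measured too. Macrophages of the brain's borders (5 of 6 genes) gave 0 calls, with 1, 1 and 3 genes higher in F1, F2 and F3. In F1 all 4 genes of meningeal fibroblasts were lower in sGC and 2 passed: DCN (-0.995 on the log2 scale, edgeR adjusted p = 0.0494) and LUM (-0.50, adjusted p = 0.0258), both extracellular proteoglycans. Without libraries 32 and 35 their adjusted p were 0.0577 and 0.0459. Of all genes in F1, 0.457% passed with a lower level and 48.3% had a log2 fold change above 0. The 8 genes of hippocampal neurons, the 5 of endothelium, the 3 or 4 of oligodendrocytes, and the few measured for blood myeloid cells, erythrocytes and choroid plexus gave 0 calls in each generation. None of the 5 lymphocyte markers listed was in the tables. Their part in the members' values was not tested.

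Whether the members vary together between animals was asked with each group's mean removed from log2 CPM, over all 36 libraries and 42 relations (21 pairs of members, and each of 7 members against the microglial, neuronal and astrocyte lists). Adjusted p-values come from 1e+05 permutations of libraries within groups, two-sided, adjusted over the 42. The share of other gene pairs that would pass was not computed, so counts of member pairs cannot be set against all genes. The 15 pairs that do not hold CX3CL1 were all positive, with Pearson's r from 0.18 to 0.75, and 11 passed. The strongest were CX3CR1 with TYROBP (r = 0.75, permutation adjusted p = 0.000280, Spearman's rho = 0.59, adjusted p = 0.00642) and CX3CR1 with P2RY12 (r = 0.74, adjusted p = 0.000140, rho = 0.60, adjusted p = 0.00521). Leaving out the 2 libraries farthest from the median of CX3CR1 gave r = 0.62 and r = 0.61.

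P2RY12 with TREM2 gave r = 0.68 (permutation adjusted p = 0.000168) and rho = 0.73 (adjusted p = 0.000420). Without the 2 libraries farthest from the median of P2RY12, r was 0.66. These 3 pairs were the ones past the threshold within the 31 libraries numbered 1 to 31, at r = 0.61 for CX3CR1 with TYROBP, 0.60 for CX3CR1 with P2RY12 and 0.60 for P2RY12 with TREM2. By generation the first pair gave r = 0.90, 0.60 and 0.80 in F1, F2 and F3, the second 0.92, 0.49 and 0.67, and the third 0.88, 0.71 and 0.53.

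CX3CL1 ran the other way, with r below 0 against all 6 other members, from -0.59 to -0.24. The pair of ligand and receptor, CX3CL1 with CX3CR1, was the 1 of the 6 that passed (r = -0.59, permutation adjusted p = 0.0146, rho = -0.44, adjusted p = 0.0322). Leaving out the 2 libraries farthest from the median of CX3CR1, r was -0.44. It rested largely on F1 (r = -0.94, against -0.44 in F2 and -0.06 in F3) and on libraries 32 to 36, without which r was -0.23 (permutation adjusted p = 0.390). Against the neuronal list CX3CL1 gave r = 0.70 (permutation adjusted p = 0.00262) and against the astrocyte list r = -0.67 (adjusted p = 0.00465), and within libraries 1 to 31 these were 0.41 and -0.31 (adjusted p = 0.145 and 0.281).

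CX3CR1 varied with the mean of the group-centred log2 CPM of the other microglial genes. The r was 0.86 in all libraries and 0.77 in libraries 1 to 31, past the threshold in both (permutation adjusted p = 0.000140 and 0.000840). P2RY12 did so as well (0.82 and 0.72, adjusted p = 0.000140 and 0.00189). C1QB did not (0.41 and 0.25, adjusted p = 0.0521 and 0.390).

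**Figure D5:**
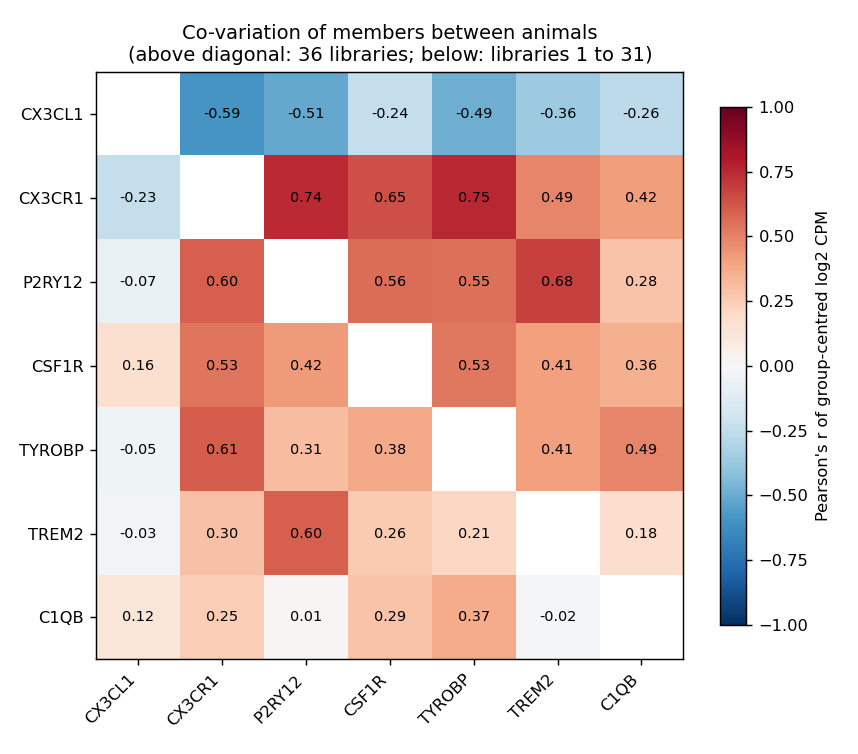
Pearson's r between members across animals, from log2 CPM with group means removed, for all 36 libraries above the diagonal and for libraries 1 to 31 below it. Pairs without CX3CL1 are positive above the diagonal, from 0.18 to 0.75, and the row of CX3CL1 is negative there, from -0.59 to -0.24, while its values below the diagonal lie between -0.23 and 0.16.

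Over all 11389 other genes, those whose group-centred levels were most like CX3CR1 were P2RY14 (r = 0.86), HOPX (0.81) and B2M (0.81). CX3CL1 was most like CLSTN3 (0.87), APP (0.86) and BPHL (0.86). For CSF1R they were NLRP3 (0.76), INPP5D (0.74) and PLA2G7 (0.73), and for C1QB GJA1 (0.70), CDKN3 (0.70) and LPIN2 (0.66). In libraries 1 to 31 these 12 values ranged from 0.59 to 0.78. These are descriptions over 36 libraries, ranked among all genes and without a test.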

How the data were processed

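RNA of 36 hippocampal libraries was sequenced as mRNA (TruSeq), and the authors deposited raw counts of reads per gene symbol, in 1 table per generation. Per the labels, reads were aligned with TopHat2. The counting tool, build and annotation of the RNA reads are not given in the sources used here. The tables also hold the authors' own edgeR comparison and the 36 methylation samples hold only the authors' differences between groups; neither was used. Groups came from the labels' generation and treatment.

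Counts were analysed in R 4.3.3 with edgeR 4.0.16: filterByExpr (11377, 11414 and 11359 genes kept), TMM scaling and the quasi-likelihood test within each generation, with the Benjamini-Hochberg threshold of 0.05 over all genes kept. Interactions, the mean effect and contrasts between controls came from 1 fit of 36 libraries over 11390 genes. Co-variation used log2 CPM with a prior count of 2, in Python 3.11.15 with numpy 2.4.6. DESeq2 1.42.0 was an alternative. Scripts were tested on simulated data. Library totals ran from 13507449 to 19767033 reads, and TMEM119 and TREM2 had the fewest reads of the members. No 2 libraries agreed within sampling noise (91 pairs within groups, chi-square per degree of freedom from 2.15 to 29.5).

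The members and lists were chosen with earlier results of these data known. Named genes were all members, list genes past the threshold within a generation, CSF1, IL34, ADAM10, ADAM17, APOE, C3, AIF1, CD68 and ITGAM, and the 3 genes most like CX3CR1, CX3CL1, CSF1R and C1QB. IRF8, TLR4, CXCL10, SUSD4 and CAMK2A were named after their values were seen. The result of 1 further microglial gene is not reported here.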

Additional observations from a re-analysis of the deposited data

Results flagged for a closer look

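Within the 46 groups of 5 to 7 libraries checked, the highest or lowest library stood farther from the rest than Dixon's criterion allows in 10 cases. For independent checks chance gives about 1 in 20, but these checks share libraries between genes. F1 sGC replicate 4 (library 35) accounted for 4 of the 10 cases, as the highest value of CX3CR1 (74.9 CPM, next 58.8), P2RY12 (67.6, next 47.6), C1QB (21.2, next 14.3) and TYROBP (21.8, next 15.7). F3 sGC replicate 4 was highest for CX3CR1 (66.1 CPM, next 57.3) and CSF1R (127, next 112), and F3 sGC replicate 7 was lowest for P2RY12 (40.3, next 48.4). F1 control replicate 3 was lowest for CSF1R (84.4 CPM, next 102.2) and F1 control replicate 2 highest for C1QB (20.2, next 14.9). F2 control replicate 5 was lowest for TREM2 (2.37 CPM, next 3.09, from 33 reads).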

How the results depend on the processing

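Of 2565 fold changes of members recomputed under other settings or with 1 library left out, 2472 kept direction and side of the threshold, 4 lost and 29 gained a call, and 60 changed sign. Of the 2565, 2040 left out 1 library, in the joint fit also libraries outside the groups compared, where little could change. TMEM119 and TREM2 had the fewest reads, and groups held 5 to 7 animals. The cause of a change was not tested. The number of members past the threshold went from 0 to 1 in F1 with all generations fitted together, from 1 to 2 in F3 by the likelihood ratio test, DESeq2 or the replicate block, from 0 to 1 for F2 minus F1 by DESeq2, and for the mean effect from 1 to 2 (likelihood ratio test), 3 (replicate block) and 0 (without libraries 32 to 36). For F3 minus F2 controls it went from 1 to 2 (library totals without TMM, replicate block) and 3 (without libraries 32 to 36), and pairs of members that varied together from 12 to 3 (without libraries 32 to 36). Leaving out 1 library gave 1 to 3 members in F3 (3 without control replicate 1, 2 without sGC replicate 7), 1 to 3 for the mean effect and 1 to 3 for F3 minus F2 controls.

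Without libraries 32 to 36 the sign changed for C1QB in F1 (-0.10), TYROBP in F2 (-0.020), TMEM119 in F3 (-0.013), TREM2 in F2 minus F1 (0.12), CX3CR1 (0.033), CX3CL1 (-0.053), CSF1R (0.037) and P2RY12 (0.17) in F3 minus F1, C1QB (-0.045) and TYROBP (-0.022) on average, and for r of CX3CL1 with CSF1R (0.16) and C1QB (0.12), C1QB with TREM2 (-0.019) and TREM2 with the neuronal list (0.14). Without TMM, F2 minus F1 controls gave 0.0062 for CX3CR1 and 0.047 for C1QB. TREM2 in F3 minus F1 was -0.0022 by the likelihood ratio test and -0.010 with the replicate block, which gave -0.052 for TMEM119 in F3. With 1 library left out, values that changed sign ran from -0.087 to 0.18 for C1QB in F1, -0.020 to 0.10 for TYROBP in F2, -0.052 to 0.070 for TMEM119 in F3, -0.23 to 0.055 for TREM2 in F2 minus F1, and in F3 minus F1 from -0.047 to 0.22 for C1QB, -0.092 to 0.18 for TREM2, -0.044 to 0.054 for CX3CL1 and -0.11 to 0.11 for P2RY12. They ran from -0.011 to 0.27 for TREM2 in F3 minus F2, -0.026 to 0.064 for C1QB and -0.00016 to 0.060 for TYROBP on average. Between controls they ran from -0.074 to 0.12 for C1QB in F2 minus F1, -0.080 to 0.037 for C1QB in F3 minus F2, and in F3 minus F1 from -0.071 to 0.026 for CSF1R, -0.085 to 0.087 for C1QB, -0.035 to 0.053 for CX3CR1 and -0.27 to 0.00073 for TREM2.

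Libraries with the same replicate number did not deviate together (r from -0.07 to 0.30 in F1, -0.37 to 0.19 in F2 and -0.29 to 0.02 in F3), so the numbers were not taken as pairs. With the replicate block, genes past the threshold went from 237 to 68 in F1 and in F3 from 573 to 70 higher and 101 lower, and CX3CL1 in F3 had an edgeR adjusted p of 0.0472. Over all genes, F1 calls were 598 (likelihood ratio test), 658 (DESeq2), 852 (all generations together) and 97 (without libraries 32 to 36), and F3 calls 944 (DESeq2), 334 (all generations together) and 317 (without libraries 32 to 36). F2 minus F1 had 33 calls, against 56 without TMM, 66 unfiltered, 168 by the likelihood ratio test, 270 by DESeq2 and 68 without libraries 32 to 36. F3 minus F1 had 0, against 6 without TMM, 58, 67 and 431. Controls of F3 minus F1 had 2, against 4, 9, 8 and 1 (replicate block).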
